A study of Caenorhabditis elegans with 2 samples.

Results

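The strong autosomal intron regions are places inside introns of protein-coding genes that were recovered in a pulldown of tagged CEH-6 from late embryos of Caenorhabditis elegans. They are the members of a list of 30000 regions, called on the reads of both replicates together, that met 3 conditions. Their signal was among the 3000 highest, they lay on chromosomes I to V, and their summit was more than 100 bp from any tRNA, snoRNA, snRNA, rRNA or miRNA gene. The summit also had to lie inside a protein-coding gene, in no exon, and not 1 to 1000 bp upstream of a protein-coding transcript start. The members were thus chosen by pooled signal and by place, and there were 436. The same rule of position placed 784 of the 3000 strongest regions in promoters, 369 in distal intergenic sequence and 497 in exons. Among the weaker regions, which follow the 3000 strongest up to rank 30000, 5589 met the intron rule, and these weak intron regions are the set against which the strong ones were mainly compared. Both replicates were whole embryos of strain OP748, pooled over males and females and labelled 3.3 hours old, counted from a point that the labels do not give. The strain carries the transgene wgIs748, in which ceh-6 is joined to TY1, EGFP and 3xFLAG and which also holds unc-119(+), in an unc-119(ed3) mutant of the VC2010 background. DNA was immunoprecipitated with an antibody against GFP, and 1 control was used for all lists. All samples carry the transgene, so no other genotype, stage or mock pulldown was compared. The tagged protein was made from an added copy of the gene, and how much of the signal came from it was not tested.

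CEH-6 is a POU homeodomain protein, a factor with a POU-specific domain and a homeodomain that together read an octamer, classically ATGCAAAT. In C. elegans it is known for its roles in the excretory canal cell, in rectal epithelial cells and in some neurons. Introns can hold enhancers, which act on the gene around them or on a neighbour. Long introns of worm genes also hold simple repeats, transposon copies and genes of small RNAs.

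The windows printed here, which reach 100 bp to each side of the summit, show examples of the sequence patterns that were searched. All are the plus strand of WBcel235, taken from its RefSeq copy, written 5′ to 3′. The first is the window of the strongest member, in an intron of srt-52, which held none of the 8 motifs as exact letters. It did hold letters like those of both internal promoter elements of tRNA genes, namely TGGC and, after any 2 letters, AGTGG, as in an A box, followed on the same strand by GGTTCAA, a B box with A in place of G.
srt-52, chrV:53393-53593: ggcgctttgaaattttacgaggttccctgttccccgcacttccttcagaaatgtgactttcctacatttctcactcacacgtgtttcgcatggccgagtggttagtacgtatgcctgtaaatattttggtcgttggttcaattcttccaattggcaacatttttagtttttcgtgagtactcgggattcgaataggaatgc
Of the 10 strongest members, 4 held the B box GGTTCGA or its reverse complement TCGAACC, and 3 of these follow with it in capitals. The B box is part of the internal promoter of tRNA genes, and no annotated tRNA gene lay within 250 bp of these summits. In the first and the last of these windows both strands matched, in an overlapping stretch.
Y57G11C.22, chrIV:14838259-14838459: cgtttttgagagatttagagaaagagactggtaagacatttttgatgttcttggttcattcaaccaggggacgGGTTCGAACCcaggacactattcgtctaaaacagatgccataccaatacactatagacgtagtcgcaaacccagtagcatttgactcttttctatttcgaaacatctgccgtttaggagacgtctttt
mdt-26, chrII:5661879-5662079: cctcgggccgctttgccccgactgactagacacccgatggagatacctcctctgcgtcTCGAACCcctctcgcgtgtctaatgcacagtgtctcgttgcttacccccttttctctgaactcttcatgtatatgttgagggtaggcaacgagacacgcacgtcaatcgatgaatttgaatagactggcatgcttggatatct
Y69A2AR.31, chrIV:2657433-2657633: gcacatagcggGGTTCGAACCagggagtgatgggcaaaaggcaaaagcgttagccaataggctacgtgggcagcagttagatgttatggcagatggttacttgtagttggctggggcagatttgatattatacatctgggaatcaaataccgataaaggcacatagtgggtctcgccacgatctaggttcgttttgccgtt
A CA repeat, CACACACA or TGTGTGTG, had the highest odds ratio of the motifs tested against weak intron regions, and capitals mark the whole run of the alternating letters.
ast-1, chrII:4130357-4130557: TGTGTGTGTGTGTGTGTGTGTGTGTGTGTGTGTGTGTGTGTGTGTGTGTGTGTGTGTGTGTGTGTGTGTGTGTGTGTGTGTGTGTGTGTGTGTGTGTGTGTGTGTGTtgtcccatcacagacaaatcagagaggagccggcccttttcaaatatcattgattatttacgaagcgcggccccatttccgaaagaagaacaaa
sel-8, chrIII:3620801-3621001: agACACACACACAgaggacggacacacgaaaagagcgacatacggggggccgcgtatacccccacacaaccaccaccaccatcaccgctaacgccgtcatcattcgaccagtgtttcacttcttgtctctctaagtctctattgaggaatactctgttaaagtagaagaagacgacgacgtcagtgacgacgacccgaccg
The GAGA repeat, GAGAGAGA or TCTCTCTC, is shown in the strongest member that held it and in a member of K01F9.2, again with the run in capitals. The K01F9.2 window also holds a TG run directly before its GAGA run, left in lower case.
Y67D8A.2, chrIV:3232930-3233130: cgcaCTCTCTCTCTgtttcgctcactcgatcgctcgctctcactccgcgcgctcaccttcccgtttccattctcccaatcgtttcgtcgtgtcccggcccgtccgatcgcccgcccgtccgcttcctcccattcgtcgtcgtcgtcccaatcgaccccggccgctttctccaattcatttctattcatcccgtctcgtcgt
K01F9.2, chrIII:8874300-8874500: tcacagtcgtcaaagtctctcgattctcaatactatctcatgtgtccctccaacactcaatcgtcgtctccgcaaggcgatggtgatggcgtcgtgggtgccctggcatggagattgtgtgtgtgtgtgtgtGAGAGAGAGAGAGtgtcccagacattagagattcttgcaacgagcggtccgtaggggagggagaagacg
The POU octamer, ATGCAAAT or ATTTGCAT, is in capitals in the last pair. Besides the octamer, the window of par-1 holds a TG run that is left in lower case.
par-1, chrV:14136269-14136469: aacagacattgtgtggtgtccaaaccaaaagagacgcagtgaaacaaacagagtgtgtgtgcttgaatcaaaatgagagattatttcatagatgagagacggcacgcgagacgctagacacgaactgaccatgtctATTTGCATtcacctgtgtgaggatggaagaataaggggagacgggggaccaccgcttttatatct
Y116F11A.6, chrV:19723135-19723335: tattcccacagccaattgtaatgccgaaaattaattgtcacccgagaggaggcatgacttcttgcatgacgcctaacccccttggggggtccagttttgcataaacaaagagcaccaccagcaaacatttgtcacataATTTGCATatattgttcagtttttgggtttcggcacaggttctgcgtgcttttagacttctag

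Pooled signal lay between 67.6 and 310 among the 436 regions, with a median of 78.4 and quartiles of 72.1 and 89.4. The scale of this score is the authors' and is not stated. In the weak intron regions the median was 38.3. The limit cut through a smooth range. The last 3 intron regions inside it lay in mca-2, with a signal of 67.6 at rank 2999, in C08G5.7 at rank 2997 and in idpp-4 at rank 2985. The first 3 outside it lay in gbb-2, directly after the limit with a signal of 67.6, in soc-1 at rank 3004 and in nhr-65 at rank 3008. Of the 436 regions, 434 were 410 bp wide, which is the usual width in the list, while those in srt-52 and spe-15 were narrower, at 214 and 133 bp. Only 49 of the 436 (11.2%) were among the 741 peaks that passed the authors' irreproducible discovery rate (IDR) procedure, against 24.7% of all 3000 strong regions. Introns made up 14.2% of the 344 autosomal regions of ranks 1 to 741 that were away from small RNA genes, and 25.7% of the 16564 such regions of ranks 10001 to 30000. Promoters took 62.2% of the top band and 23.4% of the lowest. Rank and position chose the members, so these values describe them and were not tested.

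The 2 replicates ranked many of these regions differently. In the lists of the single replicates, 239 of the 436 members had their summit in a region ranked in the top 3000 of replicate 1 and 281 in one ranked in the top 3000 of replicate 2. Both held for 134 members (30.7%, exact 95% interval 26.4 to 35.3%), 105 were in the top 3000 of replicate 1 alone, 147 of replicate 2 alone and 50 of neither. With the summits of the regions required to lie within 100 bp of each other, 106 members (24.3%) were in both. The list of 30000 regions of replicate 1 lacked 12 members altogether and that of replicate 2 lacked 4. The share found in both depended on the pooled rank. It was 75 of 85 (88.2%) in pooled ranks 1 to 1000, 51 of 170 (30%) in ranks 1001 to 2000 and 8 of 181 (4.42%) in ranks 2001 to 3000. The same bands gave 87.5%, 31.1% and 4.13% for strong promoter regions, 341 of 784 (43.5%) in all. Intron regions thus had fewer members in the top band, 85 of 436, than promoter regions, 288 of 784, while shares within the bands were alike. Pooled rank uses the reads of both replicates, so this is a description. In the lowest band 55 members were in the top 3000 of replicate 1 alone, 70 of replicate 2 alone and 48 of neither.

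**Figure D1:**
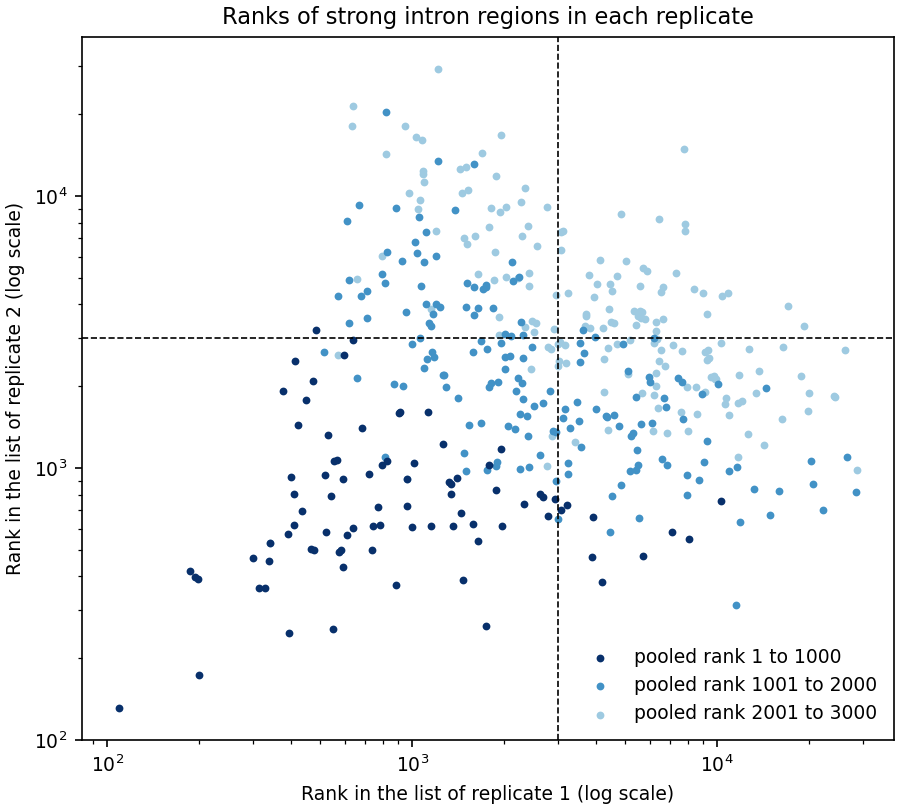
Rank of each strong intron region in the list of replicate 1 (horizontal, log scale) and of replicate 2 (vertical, log scale). Each point is 1 region that both lists hold, coloured by its rank in the pooled list, and the dashed lines stand at rank 3000. Dark points, pooled ranks 1 to 1000, mostly fall below both lines (75 of 85), and pale points, ranks 2001 to 3000, mostly fall outside the lower left field (8 of 181 inside it).

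The 15 strongest members lay in 15 different genes, and each had its summit in the top 1000 of both replicates. Replicate signals are on the scale of each replicate's own list. The strongest, on chromosome V from 53390 to 53603, lay in intron 2 of srt-52, a gene of a chemoreceptor family. Its signal was 310 in the pooled list, 137 in replicate 1 and 168 in replicate 2, at ranks 116, 109 and 131. The next, on chromosome IV from 14838154 to 14838563, lay in the long intron 2 (9612 bp) of Y57G11C.22, with signals of 238 pooled, 91.4 in replicate 1 and 146 in replicate 2. Intron 1 of ceh-6 itself held the third, on chromosome I from 8501778 to 8502187, with signals of 183 pooled, 92.4 in replicate 1 and 89.2 in replicate 2. Because the transgene holds ceh-6 sequence besides the native gene, added DNA and binding at this place cannot be told apart. The fourth, in intron 2 of spe-15, which encodes a myosin of spermatogenesis, had signals of 182 pooled, 93.3 in replicate 1 and 88.5 in replicate 2, and its summit was 122 bp from a tRNA gene. Its window held both the octamer and the B box.

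Regulators of development stood among the other 11. A region in intron 5 of ast-1, an ETS factor of dopaminergic neurons, had signals of 160 pooled, 67.2 in replicate 1 and 92.4 in replicate 2. A region in the first intron of sel-8, whose product is a coactivator of Notch signalling, had signals of 138 pooled, 50.6 in replicate 1 and 84.8 in replicate 2. A region in the first intron of die-1, a zinc finger factor needed for the shape of the embryo, had signals of 137 pooled, 60.7 in replicate 1 and 73.4 in replicate 2. The ast-1 and sel-8 windows held the CA repeat, and the die-1 summit was 246 bp from a snoRNA gene. The others lay in Y39A1C.1 (pooled signal 177), ckb-2 (172), which encodes a choline kinase, mdt-26 (166), which encodes a Mediator subunit, Y67D8A.2 (156), Y69A2AR.31 (149), F12F6.1 (143), miz-1 (137) and pfas-1 (136), which encodes an enzyme of purine synthesis. In all 15, GC content of the window was between 40.8% (pfas-1) and 60.7% (Y67D8A.2 and F12F6.1).

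Genes of small RNAs were still near some members, since the rule left out only summits within 100 bp. A tRNA, snoRNA, snRNA, rRNA or miRNA gene lay 101 to 250 bp from the summit of 11 members (2.52%), against 14 of 5589 weak intron regions (0.25%). These were tRNA genes for members in spe-15, Y116F11A.6, Y70C5A.2 and swt-5, at 122, 132, 190 and 136 bp. For members in die-1 and elf-1 they were snoRNA genes, at 246 and 187 bp. The miRNA genes were mir-58a near a member in Y67D8A.2 (224 bp), mir-35 near Y62F5A.9 (249 bp), mir-124 near trpa-1 (194 bp), mir-2 near ppfr-1 (194 bp) and mir-8195 near tsr-1 (136 bp). Whether the small RNA genes themselves lay in the same introns was not checked. Of these 11 members, 6 stood in pooled ranks 1 to 1000. Fragments recovered at such a summit can include the small RNA gene, so signal from the gene and from the intron beside it cannot be told apart in these regions. Other kinds of non-coding RNA gene (ncRNA, lincRNA, antisense RNA or piRNA) lay within 100 bp of 19 members (4.36%) and of 2.54% of the weak intron regions.

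The 436 regions fell in 353 host genes, 2.31% of the 15313 autosomal genes with intron sequence that the rule allows. Of the members, 1 lay in no intron of a coding transcript and 7 lay in introns of a pair of genes. A single member was found in 295 genes, 2 in 44, 3 in 9, 4 in 1, 5 in 3 and 6 in 1, so that 140 members shared a host gene with another. In addition, 12 members overlapped another member. These are not independent sites. Host genes had a median of 4237 bp of allowed intron sequence, against 645 bp over all 15313 genes. The share of genes with a member was 0.262% among genes with up to 500 bp of such sequence, 2.17% with 1001 to 2000 bp, 12.0% with 5001 to 10000 bp and 24.5% with more than 10000 bp.

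vab-1, which encodes the Eph receptor of C. elegans, held the most members, 6 in 3 of its introns over 10045 bp, beside 9 weak regions. Their pooled signals were 68.0, 86.2, 74.8, 78.0, 74.8 and 112 in order along the gene. Replicates differed within the gene. The member of highest signal stood at rank 376 in replicate 1 and 1925 in replicate 2, while the third along the gene stood at 4373 in replicate 1 and 1379 in replicate 2. All 5 members of Y111B2A.12 lay in its intron 4 of 7076 bp, spread over 3611 bp, with pooled signals of 118, 71.3, 83.3, 91.6 and 86.0, and that intron held no weak region. The first of the 5 ranked 573 in replicate 1 and 490 in replicate 2. The third ranked 613 in replicate 1 and 8088 in replicate 2, while the fourth ranked 4527 in replicate 1 and 793 in replicate 2. hmr-1, the classical cadherin of worm epithelia, had 5 members with pooled signals from 69.6 to 116. Of these, 4 lay in an intron of 5557 bp that is the first in at least 1 coding transcript, but lies far from the gene's 5′ end. vab-10, a spectraplakin that links the cytoskeleton to epithelial attachments, had 5 members between 69.6 and 77.1, close to the limit of the rule, over 12898 bp.

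lsy-22, a cofactor related to Groucho, had 4 members in its first intron of 11392 bp, with pooled signals of 127, 111.3, 83.6 and 96.8. The first pair overlapped and shared a single region of the replicate 2 list, at rank 502. Of the 3 members of Y67D8A.2, the pair with pooled signals of 97.8 and 73.9 overlapped and fell in the same region of each replicate list, at rank 963 in replicate 1 and 913 in replicate 2. The Y67D8A.2 pair is thus 1 region in both replicate lists, while the lsy-22 pair fell in separate regions of the replicate 1 list, at ranks 477 and 740. The third member of that gene, 156 in the pooled list, lay in intron 8.

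**Figure D2:**
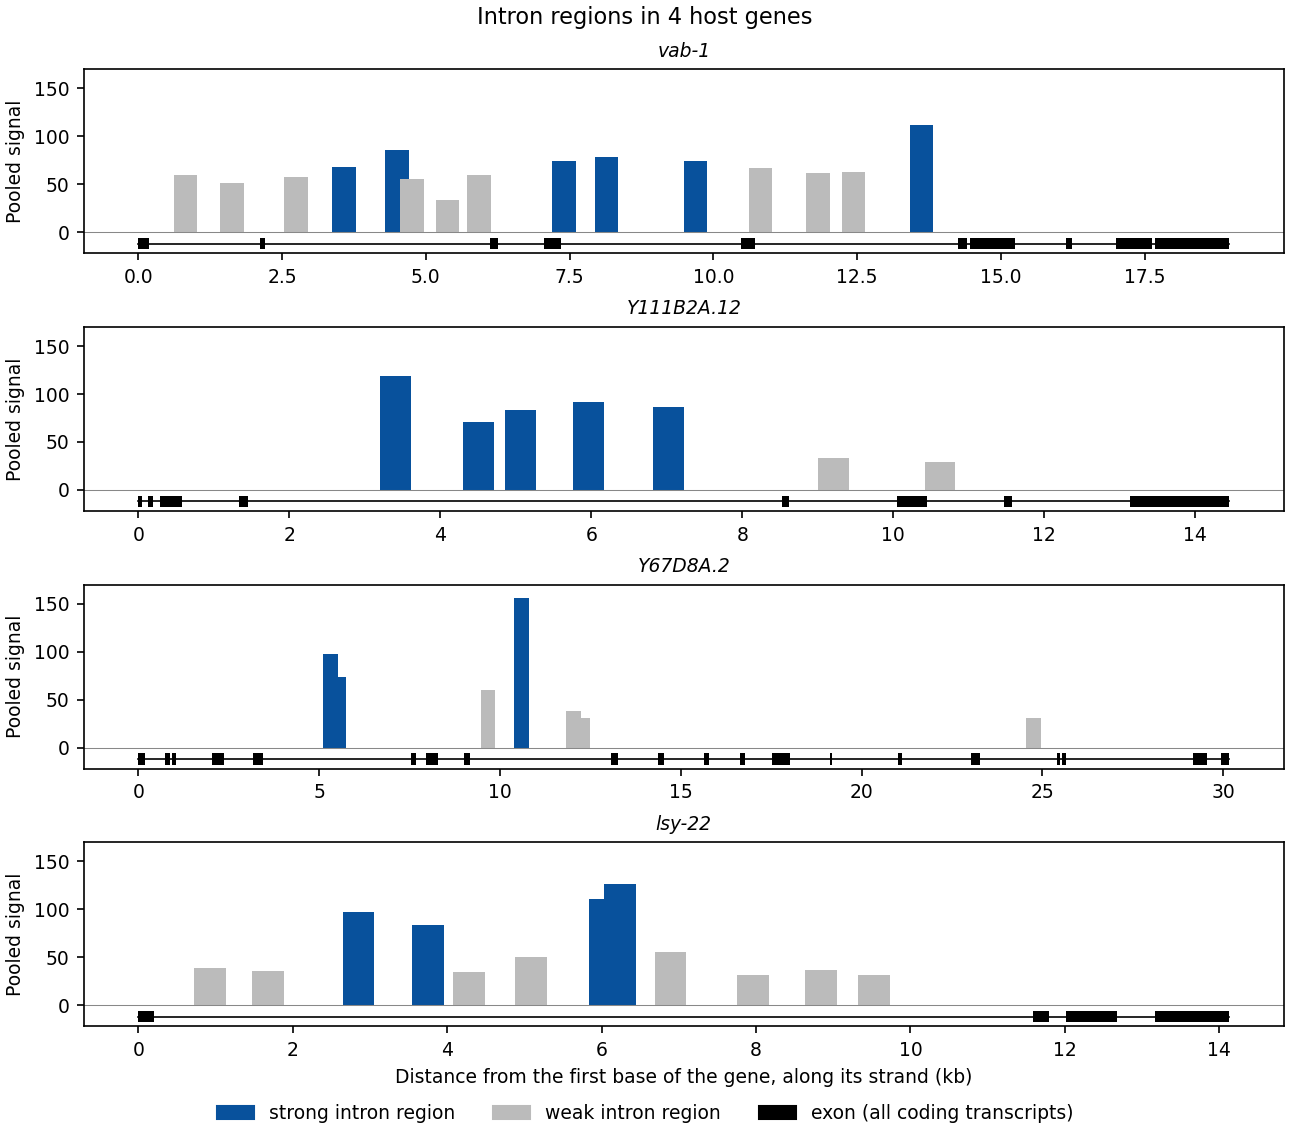
Strong (blue) and weak (grey) intron regions of vab-1, Y111B2A.12, Y67D8A.2 and lsy-22, with the pooled signal as height and the distance from the first base of the gene in kb as the horizontal axis. Black boxes are exons of all coding transcripts of the gene. The 5 strong regions of Y111B2A.12 stand in 1 intron, those of vab-1 are spread over 3 introns, and overlapping pairs are seen in Y67D8A.2 and lsy-22.

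Strong intron regions were found in longer introns than weak ones. The median intron was 1732 bp long for members and 1025 bp for weak regions. Of 435 members with a coding intron, 210 (48.3%) lay in introns over 2000 bp, against 1859 of 5567 weak regions (33.4%), an odds ratio of 1.86 (95% interval 1.52 to 2.28, adjusted p = 4.45e-09, two-sided Fisher's exact test with Benjamini-Hochberg adjustment over 14 features). Such introns held 29.1% of the 22.9 Mb of allowed intron sequence. Density was 10.9 members per Mb in introns up to 500 bp, 16.0 at 501 to 1000 bp, 15.9 at 1001 to 2000 bp, 25.7 at 2001 to 5000 bp, 41.4 at 5001 to 10000 bp and 32.4 above 10000 bp. Weak regions were spread more evenly, from 219 per Mb at 1001 to 2000 bp to 353 per Mb above 10000 bp.

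**Figure D3:**
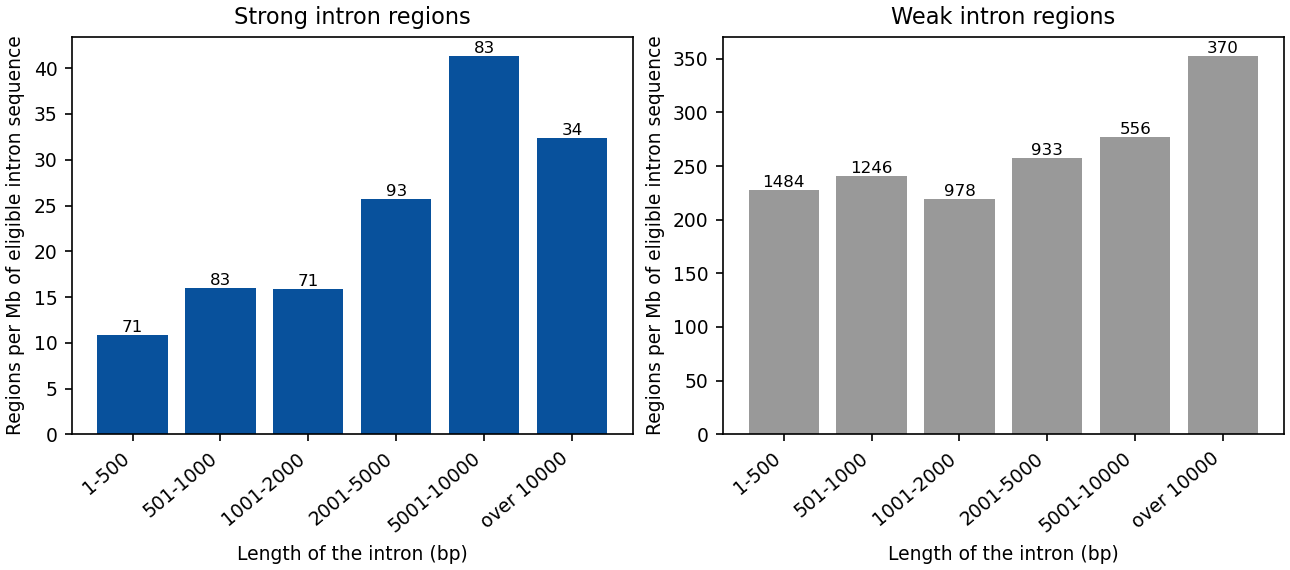
Number of strong (left) and weak (right) intron regions per Mb of allowed intron sequence, by length of the intron in bp. Bars start at 0, the axes of the panels differ in scale, and the number above each bar is the count of regions. Members rise to 41.4 per Mb in introns of 5001 to 10000 bp, against 10.9 per Mb in introns up to 500 bp.

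Place within the gene differed less. The first intron held 34.7% of members and 31.1% of weak regions (odds ratio 1.18, 0.951 to 1.45, adjusted p = 0.233, Fisher's exact test), and 30.1% of the allowed intron sequence was in first introns. The summit was within 2000 bp of the host's start in 46.2% of members and 48.8% of weak regions (odds ratio 0.902, 0.738 to 1.10, exact test, adjusted p = 0.406). Neither difference passed the threshold of 0.05. Each did in 1 comparison added after the data were seen. With only the strongest region of each host gene in both sets, the share within 2000 bp was 50.1% of members and 60.1% of weak regions (odds ratio 0.669, exact test, adjusted p = 0.00109). Among the 134 members in the top 3000 of both replicates, 42.9% of those with a coding intron were in the first (odds ratio 1.66, exact test, adjusted p = 0.0137). By chromosome, density was 20.1 members per Mb on I, 23.9 on II, 25.2 on III, 12.9 on IV and 14.1 on V, and weak regions were also sparsest on IV, at 194 per Mb. The middle 50% of each chromosome's length held 38.5% of members, 34.4% of weak regions and 41.9% of the allowed bases.

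Base composition had the largest odds ratio of the 14 features against weak intron regions. The window round the summit had a median GC content of 45.8% in members, 39.8% in weak regions and 31.8% in 84417 windows of the same length laid along the allowed introns. GC content was above the median of the list in 75.2% of members and 37.5% of weak regions (odds ratio 5.07, 4.04 to 6.4, adjusted p = 1.72e-52, Fisher's exact test). Strong promoter regions had a median of 45.3% and strong intergenic regions one of 46.3%, so the medians of these 3 strong classes lay above that of the weak intron regions. Members were above the list's median more often than promoter regions, at 75.2% against 64.9% (odds ratio 1.64, 1.25 to 2.16, exact test, adjusted p = 0.000659 over 7 features). This difference turned round in windows of 50 bp to each side (odds ratio 0.616) and was gone in the list of replicate 1 alone, without replicate 2 (odds ratio 0.992). GC content can itself affect how much DNA is recovered and sequenced, and its part in the signal was not tested.

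**Figure D4:**
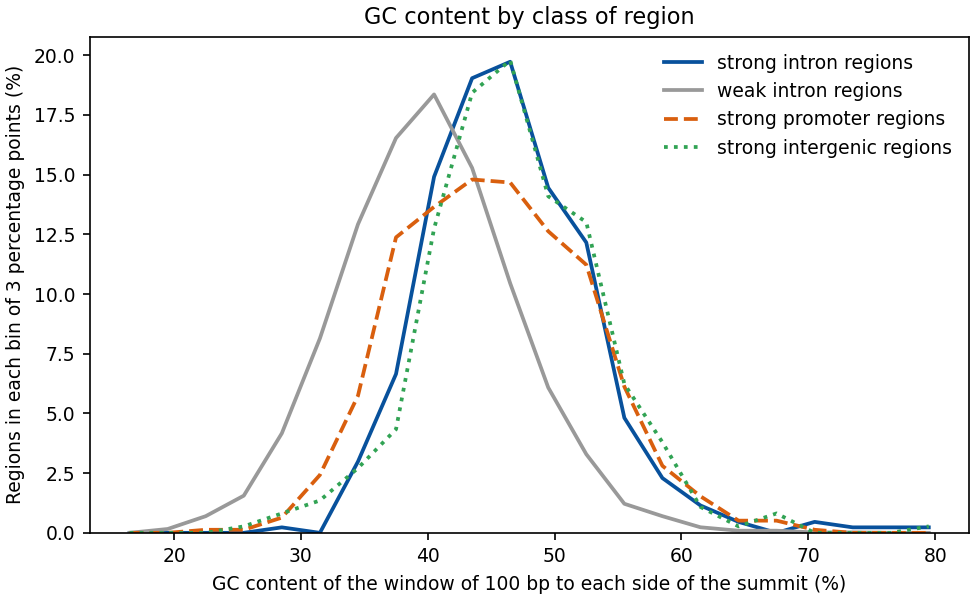
Distribution of GC content in the window of 100 bp to each side of the summit for strong intron, weak intron, strong promoter and strong intergenic regions. The vertical axis is the share of regions in each bin of 3 percentage points, joined by lines. The 3 strong classes lie together, with medians of 45.8, 45.3 and 46.3% for intron, promoter and intergenic regions, to the right of the weak intron regions at 39.8%.

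Sequence that also occurs elsewhere in the genome was less frequent in members than in weak intron regions. At least 1 stretch of 31 bases of the window was found elsewhere in 21.3% of members and 28.7% of weak regions (odds ratio 0.672, 0.525 to 0.855, adjusted p = 0.00250, Fisher's exact test). The call was lost without replicate 2 (odds ratio 0.777, exact test, adjusted p = 0.0797). The share in members was above that of strong promoter regions, 11.5% (odds ratio 2.09, 1.5 to 2.91, exact test, adjusted p = 4.02e-05). More than 50% of the 31-mers were repeated in only 11 members. The bases that the genome copy marks as repeats took a median of 19.2% of the window in members and 34.3% in weak regions.

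Simple dinucleotide repeats were the motifs that stood out. The CA repeat was present in 54 members (12.4%) and in 3.17% of weak intron regions (odds ratio 4.32, 3.07 to 6.00, adjusted p = 1.48e-14, Fisher's exact test), and in 1.28% of the windows laid along introns. The GAGA repeat, which in Drosophila is bound by GAGA factor, was present in 37 members (8.49%) and in 3.15% of weak regions (odds ratio 2.85, 1.92 to 4.15, exact test, adjusted p = 1.57e-06), and in 1.23% of the intron windows. Both repeats were found in 8 members, the CA repeat alone in 46 and the GAGA repeat alone in 29, so 353 members (81%) held neither. Within 5 strata of GC content the odds ratios were 2.85 for the CA repeat (adjusted p = 1.12e-07, exact conditional test) and 1.83 for the GAGA repeat (adjusted p = 0.0122). In strong regions elsewhere, the CA repeat was in 7.91% of promoter and 12.5% of intergenic regions and the GAGA repeat in 9.69% and 13.8%. Against promoters, the CA repeat was more frequent in members (odds ratio 1.65, 1.10 to 2.46, exact test, adjusted p = 0.0331), a call that was lost within GC strata (1.47), without replicate 1 (1.37) and without replicate 2 (1.51), while for the GAGA repeat the odds ratio was 0.864 (0.556 to 1.32, adjusted p = 0.626).

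The repeats were more frequent in long introns, in strong and weak regions alike. Between members in introns over 2000 bp and members in shorter ones the odds ratio of the CA repeat was 7.58 (3.42 to 19.1, Fisher's exact test, adjusted p = 1.25e-08), and between the same classes of weak regions it was 6.41 (4.51 to 9.28). In introns over 2000 bp, 46 of 210 members (21.9%) and 133 of 1859 weak regions (7.15%) held the CA repeat (odds ratio 3.64, 2.45 to 5.34). In shorter introns the counts were 8 of 225 members (3.56%) and 44 of 3708 weak regions (1.19%), an odds ratio of 3.07 (1.23 to 6.70). The excess over weak regions thus had overlapping intervals in both classes of intron, with adjusted p of 1.38e-09 and 0.0171 (Fisher's exact test, 16 comparisons added after the data were seen). Intron windows as such held the CA repeat in 2.36% of long and 0.678% of shorter introns. The GAGA repeat was in 15.7% of members of long introns and 7.21% of weak regions there (odds ratio 2.40, 1.54 to 3.66, exact test, adjusted p = 0.000221). In shorter introns it was in 4 of 225 members and 41 of 3708 weak regions, an odds ratio of 1.62 whose interval, 0.417 to 4.53, does not settle the direction. The median CA run was 11 bp in members and 10 bp in weak regions, and the longest, in ast-1, filled 107 bp up to the edge of the window. The centre of the run was a median of 56 bp from the summit in members and 49.5 bp in weak regions.

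Every 8-mer was searched together with its reverse complement. Of all of them, 66 (0.201%) were more frequent and 75 (0.228%) less frequent in members than in weak regions at an adjusted p under 0.05. The 6 of lowest p that were more frequent were ACACACAC (13.5% of members, 2.74% of weak regions, adjusted p = 3.06e-16), CACACACA (12.4% and 3.17%, 2.32e-11), ACATACAC (5.73% and 1.15%, 5.62e-06), CATACACA (5.73% and 1.29%, 3.25e-05), AGGAGGAG (4.82% and 0.895%, 3.25e-05) and CACTCACA (3.44% and 0.465%, 0.000124), each by Fisher's exact test. The 3 of lowest p that were less frequent were runs of A and T. AAAAAATT was in 4.36% of members and 17.5% of weak regions (exact test, adjusted p = 1.32e-11), AAAAAAAA in 4.82% and 17.9% (2.34e-11) and AAAAATTT in 4.36% and 15.7% (2.99e-09). These are 141 8-mers in both directions, and separate searches counted 132 in the list of replicate 2 alone, 74 in that of replicate 1 alone and 8 in windows of 50 bp to each side, with no count made of the 8-mers shared. Dinucleotide repeats and their near variants led the list, and the octamer was not among the 8-mers named. The search was not stratified by GC content, which was higher in members, and its part in these 8-mers was not tested.

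The octamer was present in 14 members (3.21%) and in 100 weak intron regions (1.79%), an odds ratio of 1.82 (0.952 to 3.23) with an adjusted p of 0.0873 by Fisher's exact test, which missed the threshold. In the intron windows it was present in 1.52%. The call was past the threshold under some alternatives: the odds ratio was 2.12 within strata of GC content (exact test, adjusted p = 0.0440) and 2.29 with promoters taken as 2000 bp long (adjusted p = 0.0244). In introns over 2000 bp, 11 of 210 members (5.24%) and 35 of 1859 weak regions (1.88%) held it (odds ratio 2.88, 1.30 to 5.91, exact test, adjusted p = 0.0112 among the 16 added comparisons), and in shorter introns 3 of 225 members and 65 of 3708 weak regions did (odds ratio 0.757, 0.151 to 2.34). It was in 7.06% of the 85 members of pooled ranks 1 to 1000, 1.76% of those of ranks 1001 to 2000 and 2.76% of those of ranks 2001 to 3000. The 14 members lay in 11 genes, since hmr-1, vab-1 and Y67D8A.2 each held 2, and the Y67D8A.2 pair overlapped. The strongest were those in spe-15 (182), hmr-1 (107), par-1 (102), a kinase of cell polarity, Y116F11A.6 (101) and fbxl-5 (98.7). The par-1 region stood at rank 549 in replicate 2 but only at rank 8100 in replicate 1. With only the strongest region of each host gene the odds ratio was 1.13 (exact test, adjusted p = 0.725). Allowing 1 mismatch, the octamer was in 26.4% of members and 28.9% of weak regions (odds ratio 0.881, 0.7 to 1.10, exact test, adjusted p = 0.392). Within strata of GC content the odds ratio of this form lay on the other side of 1, at 1.27 (1.00 to 1.61). It was not past the threshold there (exact conditional test, adjusted p = 0.0843).

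The B box was present in 13 members (2.98%) and 1.54% of weak intron regions (odds ratio 1.97, 0.998 to 3.58, adjusted p = 0.0706, Fisher's exact test). It was in 4 of the 10 strongest members, those of Y57G11C.22, spe-15, mdt-26 and Y69A2AR.31, of which only that of spe-15 had an annotated tRNA gene within 250 bp. A longer form, in which 2 further bases after any 2 letters had to be C, was in 6 members (1.38%) and 0.644% of weak regions. The call was past the threshold among the 134 members in the top 3000 of both replicates (odds ratio 4.06) and among IDR peaks alone (5.68). With A or G allowed at the sixth base, the B box was in 25 members (5.73%), 3.79% of weak regions and 3.79% of the intron windows. The A box letters followed by such a B box were in 1 member, that of srt-52 (0.229%), in 19 weak regions (0.340%) and in 0.152% of the intron windows. Both of these looser searches were chosen after the printed windows were seen and were not tested. The remaining motifs did not differ at the threshold. The GATA site TGATAAG was in 5 members (1.15%) and 2.04% of weak regions, the SOX half-site ACAATG in 8.26% and 8.11%, the E-box CAGCTG in 3.67% and 4.10%, and the E2F-like site TTTCCCGC in 2.06% and 1.61%, with adjusted p from 0.392 to 0.927 (Fisher's exact test). Their intervals do not exclude differences, as for GATA, whose odds ratio of 0.557 had an interval of 0.177 to 1.35.

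**Figure D5:**
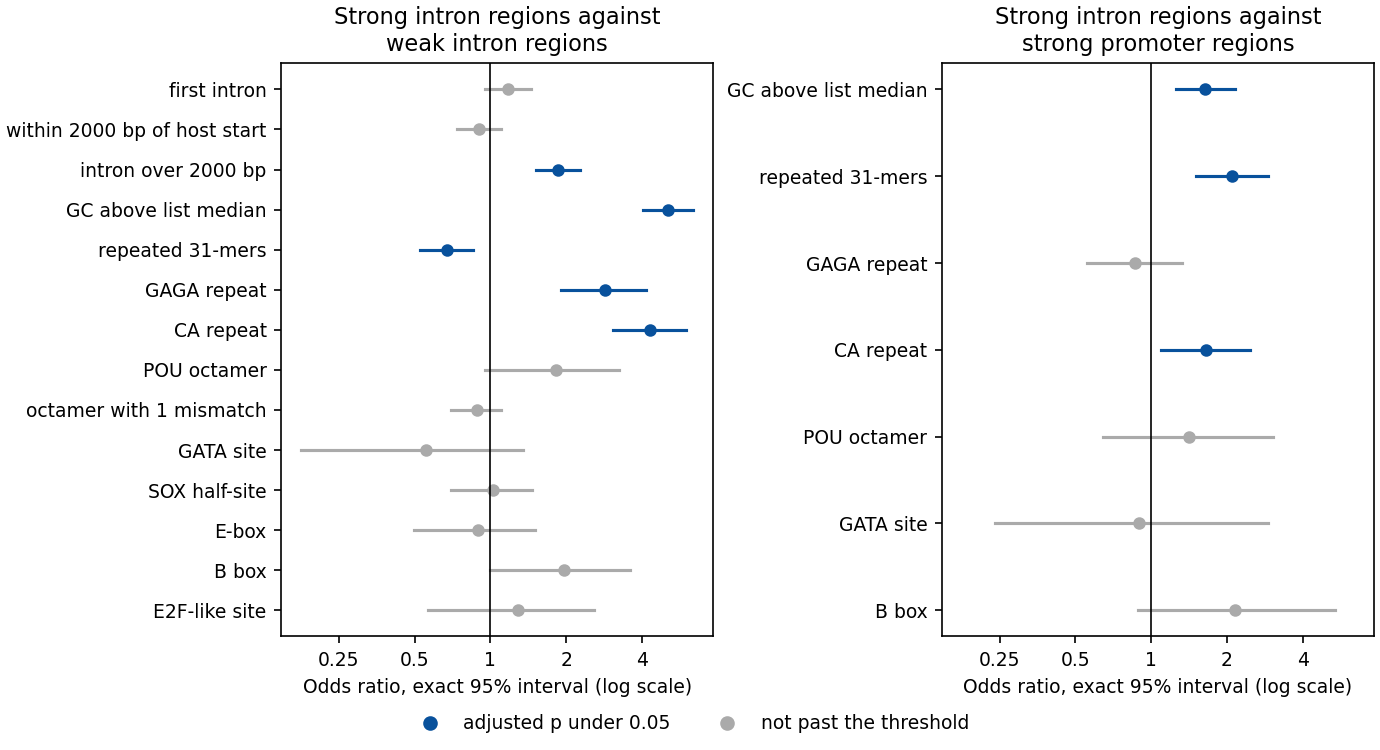
Odds ratios (points, log scale) with exact 95% intervals (lines) for features of strong intron regions against weak intron regions (left, 14 features) and against strong promoter regions (right, 7 features). Blue marks an adjusted p under 0.05 and grey the rest. Intron length, GC content and both dinucleotide repeats lie above 1 and repeated 31-mers below 1 on the left, while repeated 31-mers lie above 1 on the right.

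Genes of 12 lists were compared with the 2.31% of all genes that held a member, as a description. Lists differed in allowed intron sequence, so genes with a member were also counted per Mb of it. The count was 15.1 for all genes, 48.7 for the guidance list, 39.7 for the signalling list and 41.5 for homeobox genes. Of 35 axon guidance and neuronal adhesion genes, 13 (37.1%) held one, and the strongest were in vab-1 (112), unc-53 (106), which is needed for outgrowth of axons and muscle arms, cam-1 (95), a Ror receptor kinase, and ptp-3 (92.8), a receptor phosphatase of the LAR family. Of these genes 82.9% also held a weak region, against 20.4% of all genes, and their median of 5607 bp of allowed intron sequence falls in the class of genes of which 12.0% held a member. The strongest members of vab-1, unc-53 and ptp-3 were in the top 3000 of both replicates. That of cam-1 ranked 3206 in replicate 1 and 733 in replicate 2. Among weaker ones, that of smp-1 ranked 1473 and 1137, and that of unc-5 ranked 5693 and 5433. Notch, TGF-beta, FGF and EGF signalling genes held one in 6 of 29 (20.7%), led by sel-8 (138), daf-5 (120), a Ski-like cofactor, sos-1 (99.9), an exchange factor of Ras, and mpk-1 (98.4), a MAP kinase. Homeobox genes held one in 7 of 70 (10%), namely ceh-6 (183), the Hox gene nob-1 (92.4), vab-7 (79.9), an even-skipped relative, cog-1 (72.4) and 3 others. Of these, ceh-6 ranked 198 in replicate 1 and 391 in replicate 2, and nob-1 ranked 1411 and 1818. The others were not in the top 3000 of both replicates. vab-7 ranked 20680 and 874, cog-1 5161 and 2968, zfh-2 3200 and 2440, and ceh-43 10828 and 4401. zag-1 ranked 860 in replicate 1 and was absent from the list of replicate 2.

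Shares were lower in other lists. Genes with a member per Mb of allowed intron sequence numbered 23.3 for the excretory and V-ATPase list and 22.9 for Wnt genes. For nuclear hormone receptors the count was 20.4. Ion channel genes, at 13.02, and chemoreceptor genes, at 14.01, lay just below the 15.1 of all genes. Lower counts were 7.28 for bHLH, T-box, forkhead, GATA and SOX genes and 4.37 for synaptic transmission genes. Genes of the excretory canal, where ceh-6 is known to act, and of the V-ATPase held a member in 3 of 39 (7.69%), which were ceh-6, lin-48 (80.9), a zinc finger factor of the excretory duct, and vab-10 (77.1). This share includes ceh-6, where added DNA of the transgene cannot be told apart from binding. Wnt and planar polarity genes held one in 2 of 26 (7.69%), lit-1 (109), a kinase of the Wnt pathway, and cam-1, which is also in the guidance list. The share was 6 of 128 (4.69%) for ion channel and gap junction genes, led by trpa-1 (104) and the potassium channel gene slo-1 (82.8). It was 6 of 244 (2.46%) for nuclear hormone receptors, led by nhr-46 (89.9) and nhr-104 (84.3), 1 of 58 for bHLH, T-box, forkhead, GATA and SOX genes, which was elt-6 (83.8), and 1 of 50 for synaptic transmission genes, which was unc-26 (71.2). Chemoreceptor genes held one in 12 of 1245 (0.964%), with srt-52 first, then sre-5 (97.4). The replicates ranked some members of these lists very differently. That of nhr-104 ranked 20302 in replicate 1 and 1064 in replicate 2, and that of unc-26 ranked 639 and 21455. Those of slo-1, at 2090 and 2586, and lin-48, at 2478 and 2780, were in the top 3000 of both. No member lay in the 36 genes listed for muscle and basement membrane, which had 150 kb of allowed intron sequence in all (median 2309.5 bp). Of these genes, 50% held a weak region. None lay in any of 36 ribosomal protein genes either (median 65.5 bp of allowed intron sequence).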

How the data were processed

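Measurements came from 2 biological replicates of 1 group. The authors deposited lists of regions for each replicate, for the pooled reads and for the peaks past the irreproducible discovery rate (IDR) procedure. All used 1 control and assembly ce11, per the labels. The signal in the deposited lists is a score of the authors' peak caller, used only to rank and describe regions within a list. Caller, aligner and read filters were not given in the sources used here. Read counts do not appear in the files, so depth is unknown. Intervals and p-values treat regions as independent and cover counting only, since regions are not biological replicates.

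Summits were placed on Ensembl release 115 of WBcel235, which ce11 also names, with sequence from its RefSeq copy. Every region end in the lists fell within that assembly's chromosomes. Allowed intron sequence means all bases that meet the position rule. Introns carry their lowest number over the coding transcripts of the host gene, so a first intron can be internal in another transcript. Windows were centred on the summit with 100 bp on either side. Each motif was searched on both strands as exact letters. Two-sided Fisher's exact tests compared features (conditional odds ratios, exact 95% intervals), adjusted by Benjamini-Hochberg over 14 features against weak intron regions, 7 against strong promoter regions and all 8-mers, at 0.05. GC strata were 5 bins tested by the exact conditional test in R 4.3.3. Python 3.11.15, scipy 1.17.1 and pandas 2.3.3 were used, and the steps were tested on simulated data. The genes named were those of the 15 strongest members, the 6 genes with most members, the members next to the limit and up to 4 per gene list. Members with the octamer, with a small RNA gene nearby or with a printed sequence were named after their values were seen. The 8-mers named were the 6 and 3 of lowest p in each direction. Members, lists and tests were chosen with earlier results of these data known. The alternatives were IDR peaks alone, promoters of 2000 bp, each replicate alone, windows of 50 bp, weak regions of the last 15000 ranks, GC strata and, for the match of members to replicate regions, an overlap of at least 50% of the width or summits within 100 bp. Added after seeing the data were members in both replicates, 1 region per host gene, windows without repeated 31-mers, a distance of 250 bp from small RNA genes, and the split by intron length.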

Additional observations from a re-analysis of the deposited data

How the results depend on the processing

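Longer introns (odds ratio 1.62 to 3.01), higher GC content (3.32 to 25.6) and the CA repeat (2.85 to 8.84) stayed past the threshold against weak intron regions in every alternative run. With IDR peaks alone the members numbered 49, of which 47 were in the top 3000 of both replicates, and 5 8-mers passed. Odds ratios were then 0.413 for repeated 31-mers and 3.49 for the GAGA repeat, both no longer past the threshold, 5.68 for the B box, now past it, and 1.32 for repeated 31-mers against promoters, no longer past it. With promoters of 2000 bp they were 2.29 for the octamer, now past, and 1.06 for GC content against promoters, no longer past, and 70 8-mers passed. Windows of 50 bp reversed GC content against promoters (0.616) and lost the CA repeat against promoters (1.58), and 8 8-mers passed. Weak regions of the last 15000 ranks gave 219 8-mers, against 141 in the comparison as reported. GC strata gave 2.12 for the octamer, now past, and 1.47 for the CA repeat against promoters, no longer past. The range over leaving out each replicate, which uses the list of the other alone, was 0.992 to 1.55 for GC content and 1.37 to 1.51 for the CA repeat, both against promoters, 0.725 to 0.777 for repeated 31-mers against weak regions, and 74 to 132 8-mers. Of the alternatives added after seeing the data, members in both replicates gave 1.66 for the first intron and 4.06 for the B box, now past, and 0.655 for repeated 31-mers, no longer past. Taking 1 region per host gene gave 0.669 for nearness to the start, now past, and 0.739 for repeated 31-mers, no longer past. Windows without repeated 31-mers gave 2.13 for the octamer and 2.45 for the B box, now past, and 1.54 for the CA repeat against promoters, no longer past. IDR peaks alone also left fewer regions to test, and the cause of none of these changes was tested. A distance of 250 bp from small RNA genes changed no call. The 134 members in both replicates stayed 134 with an overlap of at least 50% of the width and became 106 with summits within 100 bp. No paired analysis was possible because the design has 1 group. Without read counts, depth is unknown and sets no stated limit. The pooled ranking holds members that are strong in 1 replicate only.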
